A study of Mus musculus with 30 samples.

Results

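Integrins and discoidin domain receptors are the cell surface receptors through which cells of the aortic wall hold and sense collagen, fibronectin and laminin. The 10 receptor genes described here were the integrin alpha subunits Itga1, Itga5, Itga7, Itga8, Itga9 and Itgav, the integrin beta subunits Itgb1 and Itgb5, and the discoidin domain receptors Ddr1 and Ddr2. They were chosen by gene symbol from the 26253 genes listed in the deposited files, and all 10 had reads in every library. Bulk RNA-seq had been made from the descending thoracic aortas of 30 mice, 1 library per aorta, in a study of vascular Ehlers-Danlos syndrome (VEDS). All mice sequenced in this way were male, per the paper's methods.

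The VEDS mice were heterozygous for a germline missense change in Col3a1, the gene of type III collagen, and their controls were wild type (Col3a1+/+). VEDS HB aortas (3 libraries) came from mice given hydralazine, a vasodilator, at 32 mg/kg/day in drinking water from birth, with bicalutamide, an androgen receptor antagonist, at 50 mg/kg/day in chow from day 21. VEDS HS aortas (3 libraries) came from mice given the same hydralazine dose and spironolactone, an antagonist of the mineralocorticoid receptor that also blocks the androgen receptor, at 100 mg/kg/day in chow from day 21. VEDS hydralazine and control hydralazine aortas (6 libraries each) received hydralazine alone from birth. VEDS untreated and control untreated aortas (6 libraries each) received nothing. HB and HS aortas were collected at day 60, whereas the other 4 groups held aortas of day 30 or day 60, and the age of each library was not labelled. No group received bicalutamide or spironolactone without hydralazine.

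An integrin is a pair of 1 alpha and 1 beta subunit, and the alpha subunit largely sets which matrix protein is bound. The beta 1 subunit, made by Itgb1, pairs with α1, α5, α7, α8, α9 and αv, whereas β5 pairs only with αv. Integrins have no enzyme activity of their own and signal through adaptors such as talin, kindlin and focal adhesion kinase. DDR1 and DDR2 are receptor tyrosine kinases that are switched on by triple-helical collagen itself. In the media of the aorta these receptors tie smooth muscle cells to the collagen and elastin around them.

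Total counts ran between 5517510 and 8293289 per library (median 6512210.5), and the 10 genes had at least 114 reads in each library. Smooth muscle markers were the most abundant of the marker sets, with a summed level of 16170 to 30710 CPM (counts scaled by library size), and all 8 had a median over 1 CPM. Markers of other tissues were present too. Hepatocyte transcripts summed to 666, 734 and 909 CPM in HB libraries and 199, 778 and 1937 CPM in HS libraries, against 107 to 16670 CPM in VEDS untreated libraries. Adipocyte transcripts had medians of 383 CPM in HB, 384 CPM in HS and 1244 CPM in VEDS untreated libraries. HB replicate 2 and control hydralazine replicate 5 held raised cardiomyocyte markers, which summed to 839.7 and 871.2 CPM there, against at most 293.1 CPM in the other 28 libraries. HS replicate 3 had been set apart in an earlier analysis of these libraries, though its cardiomyocyte markers were not raised (200.4 CPM). The called Ddr1 differences, and those of Ddr1 and Itga5 in HS against VEDS untreated aortas, are given with and without the library concerned.

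Col3a1 itself fell into separate ranges. It had 4309 to 7702 CPM in 18 libraries and 13650 to 17720 CPM in 12. In each of the 4 groups of 6 aortas, 3 libraries lay in the lower and 3 in the higher range, while all HB and HS libraries lay in the lower range. The genotype and hydralazine comparisons were therefore balanced between the ranges. Their models held no term for the range, so their SDs, intervals and p-values include the difference between ranges. Itgb1, for example, had 1533 to 1694 CPM in the lower-range and 1141 to 1285 CPM in the higher-range control untreated libraries. The HB and HS comparisons were not balanced, since their untreated and hydralazine groups held both ranges. Their fits alone cannot tell the treatment from the age at collection. The paper lists Col3a1 among transcripts that fell from the earlier to the later collection age. It lists Itga1, Itga5, Itgb1 and Itgb5 among those that rose. The lower range, which held all HB and HS libraries, has the Col3a1 direction reported for the later age. Values of lower-range libraries are set beside those of HB and HS as a description. Whether range and age match library by library was not tested, since ages were not labelled. Several members differed between the ranges. Itga1 and Itgb1 were higher in all 18 libraries of the lower Col3a1 range than in any of the 12 others, as were Itga8 in 17 and Itgb5 in 15 of the 18, against 3 for Ddr1 and 2 for Itga9. The ranges were seen in the data and are not labelled groups, so values are given by library beside the HB and HS results and no test was made between them.

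Levels between genes were compared as TPM, transcript abundances corrected for transcript length. Itga8, whose product binds fibronectin, nephronectin and other proteins with an RGD motif, was the most abundant, with a median of 695 TPM (530.9 to 818 TPM over 30 libraries). Itgb1, the shared beta subunit, followed at 221 TPM (176 to 273 TPM). Both kept these places in 30 of 30 libraries. Itgb5, a partner of αv, and Itga9, a receptor subunit for tenascin C, had medians of 98.0 and 97.5 TPM and could not be ordered, since Itgb5 was above Itga9 in 16 of 30 libraries.

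Ddr2, the kinase that prefers fibrillar collagens, had a median of 35.6 TPM and lay above Itga1, the collagen-binding alpha subunit, in 27 of 30 libraries. Itga1 (30.4 TPM), Itga7, a laminin receptor subunit (28.4 TPM), and Itgav (25.4 TPM) overlapped widely, with Itga1 above Itga7 and Itga7 above Itgav in 19 of 30 libraries each. Itga5, the alpha subunit of the main fibronectin receptor, had a median of 20.8 TPM and the widest spread of the 10 relative to its level, from 9.56 to 34.5 TPM. Ddr1, the kinase that also binds type IV collagen of basement membranes, was the lowest in 30 of 30 libraries at 5.46 TPM (3.46 to 8.53 TPM).

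**Figure D1:**
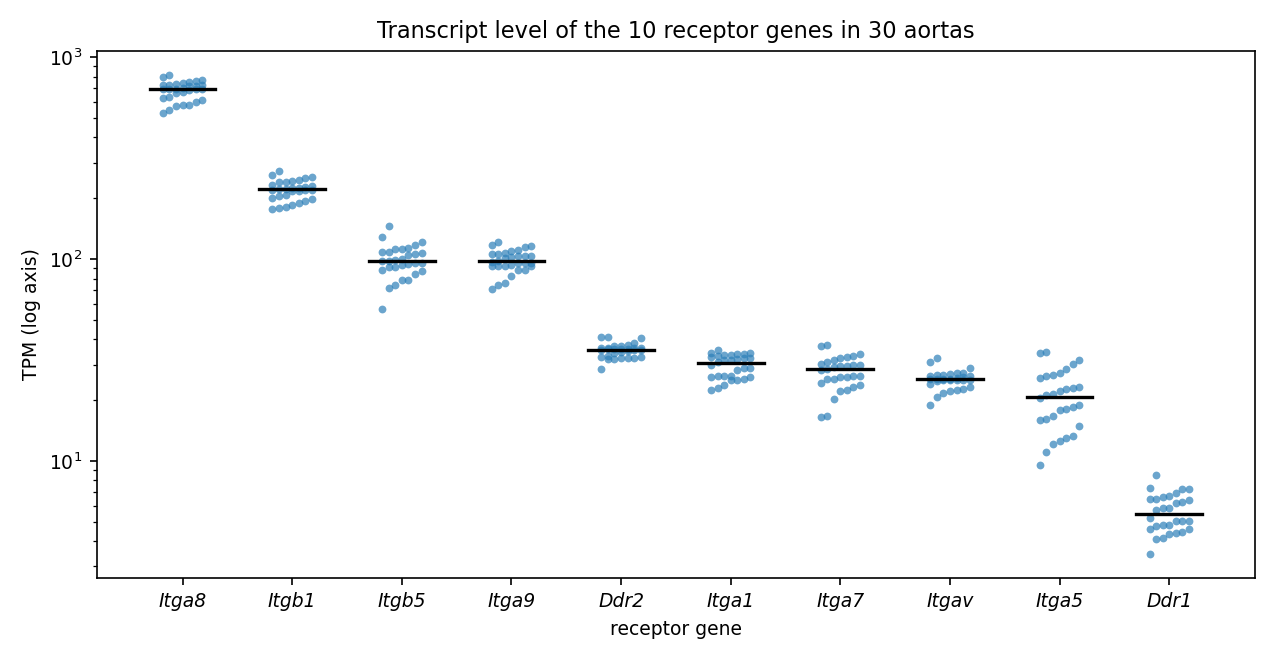
Level of each receptor gene in TPM (log axis) in 30 aortas, 1 point per library, with a bar at the median. Itga8 lies highest (median 695 TPM) and Ddr1 lowest (median 5.46 TPM), and the points of Itgb5 and Itga9 overlap.

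Among the 18 integrin alpha subunits listed, Itga8 made up 74.8% ± 1.35 of the summed TPM (SD, n = 30), with a range of 71.9% to 77.5%. Itga9 made up 10.8% ± 1.02, and Itga1, Itga5, Itga7 and Itgav between 2.28% and 3.24% each. Of the 8 beta subunits listed, Itgb1 made up 63.5% ± 2.51, Itgb5 28.2% ± 2.48 and Itgb3, another partner of αv, 6.71% ± 0.895. Itga8 transcripts exceeded those of Itgb1 by a ratio of 3.11 ± 0.176. This ratio was 3.04 ± 0.227 in HB, 2.92 ± 0.341 in HS, 3.14 ± 0.123 in VEDS hydralazine and 3.12 ± 0.0770 in VEDS untreated aortas, so the groups differed by less than the spread within HB and HS. Of the discoidin pair, Ddr2 made up 86.3% ± 2.37 and Ddr1 13.7%.

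The receptor genes varied together between aortas of 1 group. Because libraries fell into separate Col3a1 ranges, the correlation was taken inside each range, from deviations of log2 CPM from the mean of the same group, and is given as a description without a test. Over the 18 libraries of the lower range, 38 of 45 pairs had a positive Pearson r, with a median of 0.32. Over the 12 libraries of the higher range, 42 of 45 pairs were positive, with a median of 0.60. The median r of the 10 genes with all other tested genes was 0.0034 and 0.012 in these sets. These points share library depth and the mix of cells in each piece of tissue.

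Itga5 and Itgb1, the subunits of the fibronectin receptor α5β1, had an r of 0.89 (Spearman 0.88) over the 18 libraries and 0.55 (Spearman 0.36) over the 12. Without the 2 libraries farthest from the median these became 0.82 and 0.32. Itga1 and Itgb1, the subunits of the collagen receptor α1β1, had an r of 0.70 over the 18 libraries and 0.79 over the 12, and 0.56 and 0.75 without the 2 farthest. Itgav and Itga5 had an r of -0.29 over the 18 libraries and -0.18 over the 12, which became -0.037 and -0.41 without the 2 farthest. Itgav was positive with Itga9 (0.57), Itgb5 (0.50) and Itga8 (0.47) over the 18 libraries, and with Itgb5 it had -0.19 over the 12. Ddr1 had weak relations with the other members over the 18 libraries (0.0074 to 0.44) and stronger ones over the 12 (0.048 to 0.91).

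**Figure D2:**
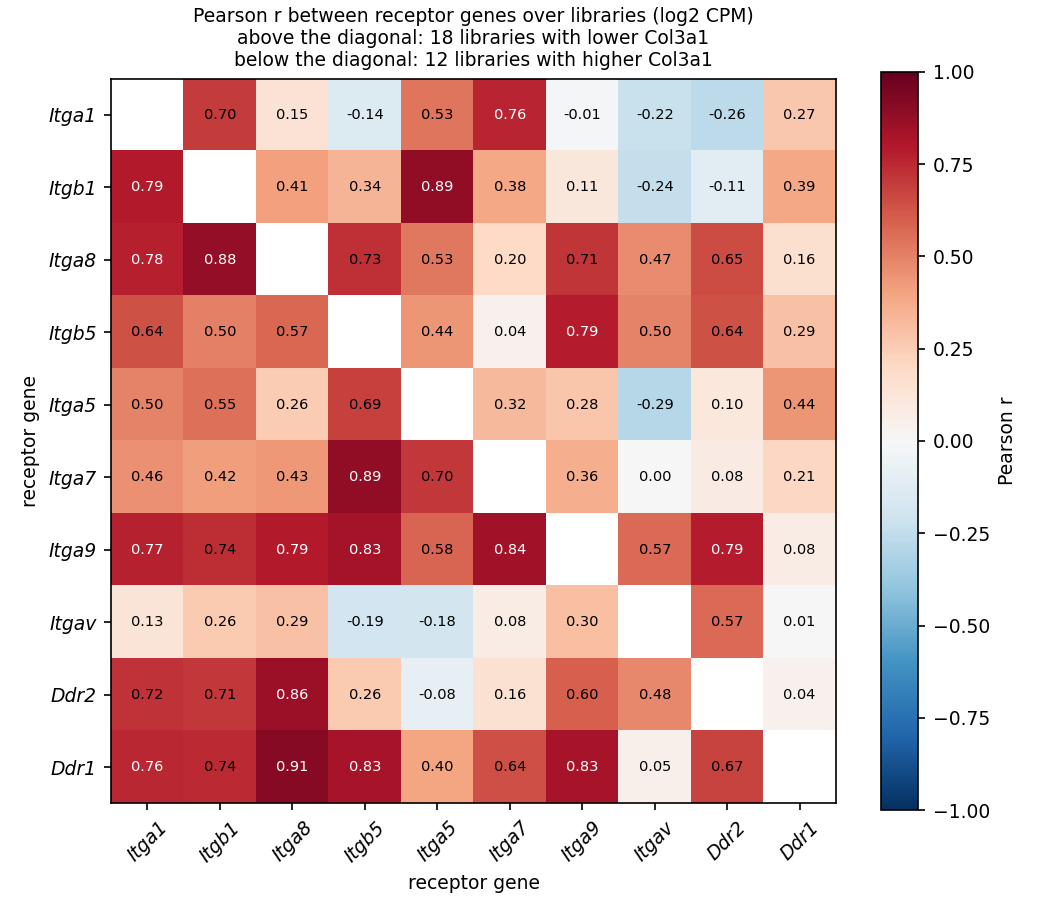
Pearson r between receptor genes over libraries, from log2 CPM deviations within a group and Col3a1 range, with the 18 libraries of the lower range above the diagonal and the 12 of the higher range below it. Red is positive and blue negative. Itga5 with Itgb1 is the highest value above the diagonal (0.89), and Ddr1 with Itga8 the highest below it (0.91).

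The tested genes whose deviations from the 6 group means were most like those of a member over all 30 libraries were named for each member. Itga7 was followed by Myo1c, an unconventional myosin, Actn1, the actin cross-linker alpha-actinin, and Tln1, which makes the integrin activator talin, and these kept an r of 0.90 to 0.94 over the 18 libraries and 0.88 to 0.92 over the 12. Without the 2 farthest of the 12 these fell to 0.64 for Myo1c, 0.69 for Actn1 and 0.60 for Tln1, and all such genes were picked for their r over these same libraries. Itgb1 was followed by Dmd, which makes dystrophin, with an r of 0.72 and 0.88 in these sets, and Itga8 by Pkp4, a plakophilin (0.89 and 0.87). Itga5 was followed by Ptgis, the prostacyclin synthase (0.85 and 0.91), and by Hspb1, a small heat shock protein (0.98 and 0.83). Ddr1 was followed by Nrd1, which makes the protease nardilysin (0.81 and 0.74). Itga1 was followed by Pls3, an actin-bundling protein (0.91 and 0.70), Itgb5 by Kctd10 (0.89 and 0.96), Itga9 by Tacc2 (0.65 and 0.97), Itgav by Prkacb, a catalytic subunit of protein kinase A (0.57 and 0.78), and Ddr2 by Trak2 (0.44 and 0.93). In bulk tissue, fewer cells of a type and less RNA per cell cannot be told apart. The summed smooth muscle markers had an r of 0.66 and 0.80 with Itga1, and of 0.85 and 0.68 with Itga7, in the lower and higher sets. They had 0.14 and -0.26 with Itgav, 0.22 and 0.89 with Ddr1, and 0.36 and 0.47 with Ddr2. The summed hepatocyte markers had an r of -0.78 and 0.26 with Itga5, and of 0.13 and -0.90 with Itgav, in the same sets.

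The first question of the design was whether the Col3a1 mutation changed the receptors. None of the 10 genes passed the test in VEDS untreated against control untreated aortas (edgeR quasi-likelihood test, Benjamini-Hochberg adjusted over all tested genes, smallest adjusted p of the members 1.0). Neither did any of the 12976 genes tested (0%), and 0 of 10 members had an unadjusted p under 0.05 where 3.04% of all genes did. DESeq2 called 0 genes. Itga8 averaged 5931 ± 722 CPM in VEDS untreated and 6303 ± 1063 CPM in control untreated aortas (SD, n = 6 each), and Ddr2 averaged 453 ± 28.1 CPM and 463 ± 33.5 CPM in the same groups. The intervals of the 10 log2 differences lay between -0.69 and 0.54, the widest being that of Itga5, so a change of more than 1.62-fold lies outside all of them.

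Under hydralazine, no member passed in VEDS against control aortas (0 of 12966 genes called, 0%), no member had an unadjusted p under 0.05 (4.64% of all genes), and DESeq2 called 1 gene, no member among them. All 10 log2 differences were below 0, between -0.15 (Itga5) and -0.02 (Itgav), with a median of -0.11 against -0.01 over all genes. With untreated and hydralazine aortas joined, 0 members and 0 of 13407 genes passed (0%), and 0 members had an unadjusted p under 0.05 (3.7% of all genes). DESeq2 called 1 gene there. The 10 differences were again below 0, with a median of -0.07 and intervals between -0.51 and 0.27. The 8 smooth muscle markers moved the same way, 7 of 8 lower, with a median of -0.08. Their part in the result was not tested.

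The second question was what hydralazine alone changed. Ddr1 had 28.4, 33.3 and 37.7 CPM (lowest, median and highest) in VEDS hydralazine aortas, against 22.5, 24.9 and 27.6 CPM in VEDS untreated aortas. The groups did not overlap. The fitted ratio was 1.34-fold (95% interval 1.19 to 1.51, log2 0.43 ± 0.08 SE). The unadjusted p was 0.000132, the smallest of 13006 genes, and the adjusted p by edgeR was 1.0, so it did not pass. No gene passed (0%), and DESeq2 called 2 genes, no member among them. Of the 10 members, 1 had an unadjusted p under 0.05, beside 4.53% of all genes, and 1 had groups that did not overlap, beside 0.208% of all genes. It was Ddr1 in both cases.

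In control aortas Ddr1 had 30.6, 35.7 and 39.5 CPM with hydralazine, against 19.6, 26.75 and 32.5 CPM untreated. These groups overlapped, since 1 control untreated library lay above the lowest control hydralazine one. The ratio was 1.35-fold (1.15 to 1.58, log2 0.43 ± 0.11), with an unadjusted p of 0.00143 and an adjusted p by edgeR of 0.50. Here too no gene passed (0% of 12951), DESeq2 called 11 with no member among them, and 1 member, Ddr1, had an unadjusted p under 0.05 (9.5% of all genes). The difference between the genotypes in the response of Ddr1 was -0.01 ± 0.14 on the log2 scale (95% interval -0.29 to 0.27, adjusted p 1.0 by edgeR). No member passed that interaction test (0% of 13407 genes called), and none had an unadjusted p under 0.05 (3.28% of all genes). DESeq2 called 0 genes.

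A comparison added after these values were seen joined both genotypes, with genotype in the model. Ddr1 averaged 34.5 ± 3.24 CPM in 12 hydralazine aortas and 25.8 ± 3.36 CPM in 12 untreated aortas. It rose 1.34-fold (1.22 to 1.48, log2 0.42 ± 0.07, adjusted p by edgeR 0.0188). Of 13407 genes it alone passed (0.00746%), and DESeq2 called 59, Ddr1 among them. Because the comparison was chosen for this gene's values, its p is not independent evidence. The call was lost without control hydralazine replicate 5, the library with raised cardiac transcripts (log2 0.41, adjusted p 0.0541). It was also lost when any of 5 other libraries was left out in turn, namely control untreated 2, VEDS untreated 3 or 4, VEDS hydralazine 1 and control hydralazine 2 (adjusted p 0.0517 to 0.0557), and held in the other 18 refits. Itgb5 averaged 518 ± 93.7 CPM with hydralazine and 436 ± 82.1 CPM untreated (log2 0.25 ± 0.11, adjusted p 0.39), and with Ddr1 it made 2 of 10 members with an unadjusted p under 0.05 (10.8% of all genes). The other kinase, Ddr2, had a log2 difference of -0.02 ± 0.05, and its interval (-0.12 to 0.09) left out the size seen for Ddr1. The ratio of Ddr2 to Ddr1 transcripts in TPM was 5.75 ± 0.734 in VEDS hydralazine and 7.88 ± 0.509 in VEDS untreated aortas, and 5.64 ± 0.965 in control hydralazine and 7.67 ± 1.06 in control untreated aortas (SD, n = 6 each).

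**Figure D3:**
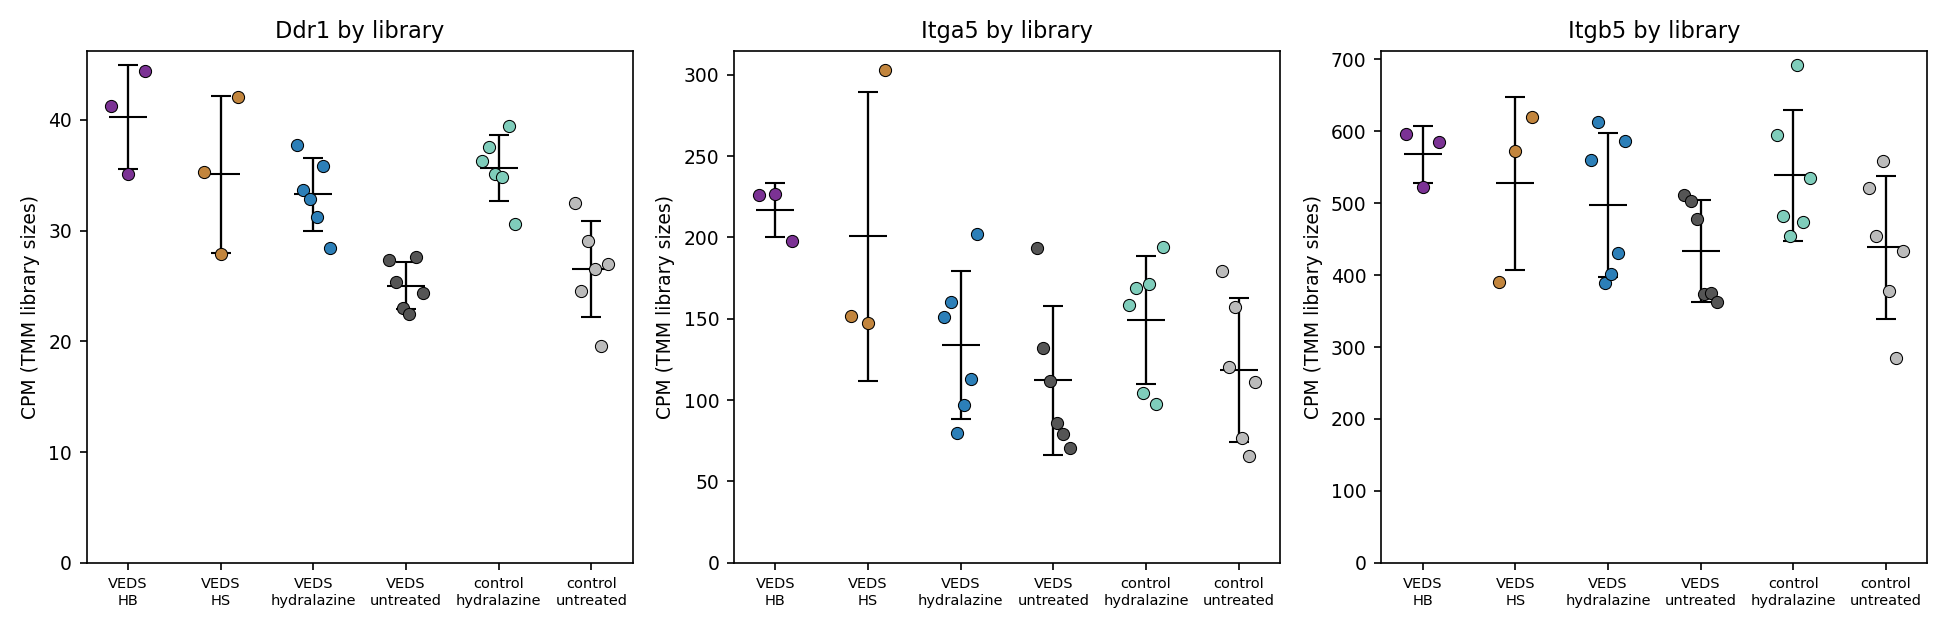
CPM of Ddr1, Itga5 and Itgb5 in each library (points) by group, with the group mean and SD. For Ddr1 the HB libraries (35.1 to 44.4 CPM) and the VEDS hydralazine libraries (28.4 to 37.7 CPM) lie above all VEDS untreated libraries (22.5 to 27.6 CPM).

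The third question was what the drug combinations changed. Ddr1 had 41.3, 35.1 and 44.4 CPM in HB aortas, against 22.5 to 27.6 CPM in VEDS untreated aortas. Every HB library lay above every untreated one. Ddr1 rose 1.6-fold (95% interval 1.38 to 1.86, log2 0.68 ± 0.10, adjusted p by edgeR 0.0298). It was the 1 member of 10 that passed, beside 0.409% of 13204 genes. The log2 difference was 0.64 with 1 surrogate variable in the model (adjusted p 0.0171). It was 0.50 with adipocyte and hepatocyte scores as covariates (adjusted p 0.54) and 0.77 without HB replicate 2 (adjusted p 0.0620), and passed in neither. The call was also lost without HB replicate 1 (0.182), HB replicate 3 (0.155) or VEDS untreated replicate 2 (0.0764), 3 (0.0649) or 6 (0.0691), with log2 differences of 0.61 to 0.68.

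Itga5 had 226, 226 and 198 CPM in HB aortas, against 70.4, 98.9 and 194 CPM (lowest, median and highest) in VEDS untreated aortas. The groups did not overlap, but only narrowly, since VEDS untreated replicate 1 lay just below the lowest HB library. The ratio was 1.93-fold (1.26 to 2.95, log2 0.95 ± 0.28), and the adjusted p by edgeR was 0.136, so it did not pass. DESeq2 called it (adjusted p 0.0173), as did edgeR without VEDS untreated replicate 1 (log2 1.18, adjusted p 0.0148). With the adipocyte and hepatocyte scores in the model the log2 difference was 0.38, with 1 surrogate variable 0.83, and neither passed.

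Itgb5 had 597, 522 and 585 CPM in HB aortas, against 362, 426 and 511 CPM in VEDS untreated aortas. The HB libraries again lay above all untreated ones (log2 0.38 ± 0.13, adjusted p 0.187 by edgeR). These 3 genes were the only members whose groups did not overlap, beside 8.63% of all genes, and the only 3 with an unadjusted p under 0.05, beside 16.4% of all genes. All 10 log2 differences were above 0, with a median of 0.20 against -0.02 over all genes, in a comparison where only VEDS untreated replicates 4, 5 and 6 lay in the higher Col3a1 range. Values beside the other 3 VEDS untreated libraries, which lay in the lower range, are given as a description. Ddr1 had 35.1 to 44.4 CPM in HB, against 23.0 to 27.3 CPM in those 3. Itga5 had 198 to 226 CPM, against 112 to 194 CPM, and Itgb5 522 to 597 CPM, against 478 to 511 CPM. That these genes were higher in every HB library follows from the lack of overlap with all VEDS untreated libraries. It is not a separate result. Itgb1 (1544 to 1581 CPM in HB, against 1436 to 1560 CPM) and Itga8 (6194 to 6974 CPM, against 6183 to 6719 CPM) overlapped with those 3 libraries. Itga1 had 271 to 297 CPM in HB, against 296 to 354 CPM, and overlapped with those 3 only at 1 HB library. The share of all genes with such a split was not computed. Among the others Itga7 had 0.30 ± 0.21, Itgb1 0.20 ± 0.11, Itga9 0.19 ± 0.09, Itga8 0.16 ± 0.12 and Ddr2 0.12 ± 0.08, and none passed. Without VEDS untreated replicate 1, Itga7 had 0.49 and passed (adjusted p 0.0313), while with the adipocyte and hepatocyte scores it had -0.18. All 8 smooth muscle markers were higher too (median log2 0.28), while all 8 hepatocyte and all 8 adipocyte markers were lower (medians -2.48 and -1.11), none past the test. The 6 cardiomyocyte markers tested were higher (median 3.39) and 7 of 8 fibroblast markers lower (median -0.18), again with none past the test. HB replicate 2 held most of the cardiomyocyte rise, with a sum of 839.7 CPM. HB replicates 1 and 3 had 256 and 279 CPM, against 143 to 260 CPM in VEDS untreated libraries. The part of these tissues in the result was not tested beyond the covariate fits above.

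In HS aortas Ddr1 had 35.3, 27.9 and 42.05 CPM, against 22.5 to 27.6 CPM in VEDS untreated aortas. The groups did not overlap, though HS replicate 2 exceeded the highest untreated library by a small margin. The ratio was 1.39-fold (1.14 to 1.70, log2 0.48 ± 0.13, adjusted p 0.189 by edgeR) and did not pass. It passed when all 30 libraries were fitted together (log2 0.49, adjusted p 0.0476), and was 0.34 without HS replicate 3 (adjusted p 0.63). No member was called, beside 0.309% of 13276 genes, 2 had an unadjusted p under 0.05, beside 11.1% of all genes, and Ddr1 alone had groups that did not overlap, beside 5.57%. DESeq2 called 295 genes, no member among them. Itga5 had 151, 148 and 303 CPM in HS aortas, and the highest value was that of HS replicate 3, the library that stood apart. Its log2 difference was 0.83 ± 0.33 (adjusted p 0.40) and 0.41 without that library. It was 0.27 with the adipocyte and hepatocyte scores and 0.58 with 1 surrogate variable. The other members lay between 0.02 (Itga9, Itga7) and 0.27 (Itgb5). All HS libraries lay in the lower Col3a1 range, and only VEDS untreated replicates 1, 2 and 3 did. Ddr1 had 27.9 to 42.05 CPM in HS, against 23.0 to 27.3 CPM in those replicates. This split follows from the lack of overlap with all VEDS untreated libraries and is not a separate result. Itga5 (148 to 303 CPM in HS, against 112 to 194 CPM), Itgb5 (391 to 619 CPM, against 478 to 511 CPM) and Itga1 (288 to 336 CPM, against 296 to 354 CPM) overlapped with VEDS untreated replicates 1, 2 and 3.

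**Figure D4:**
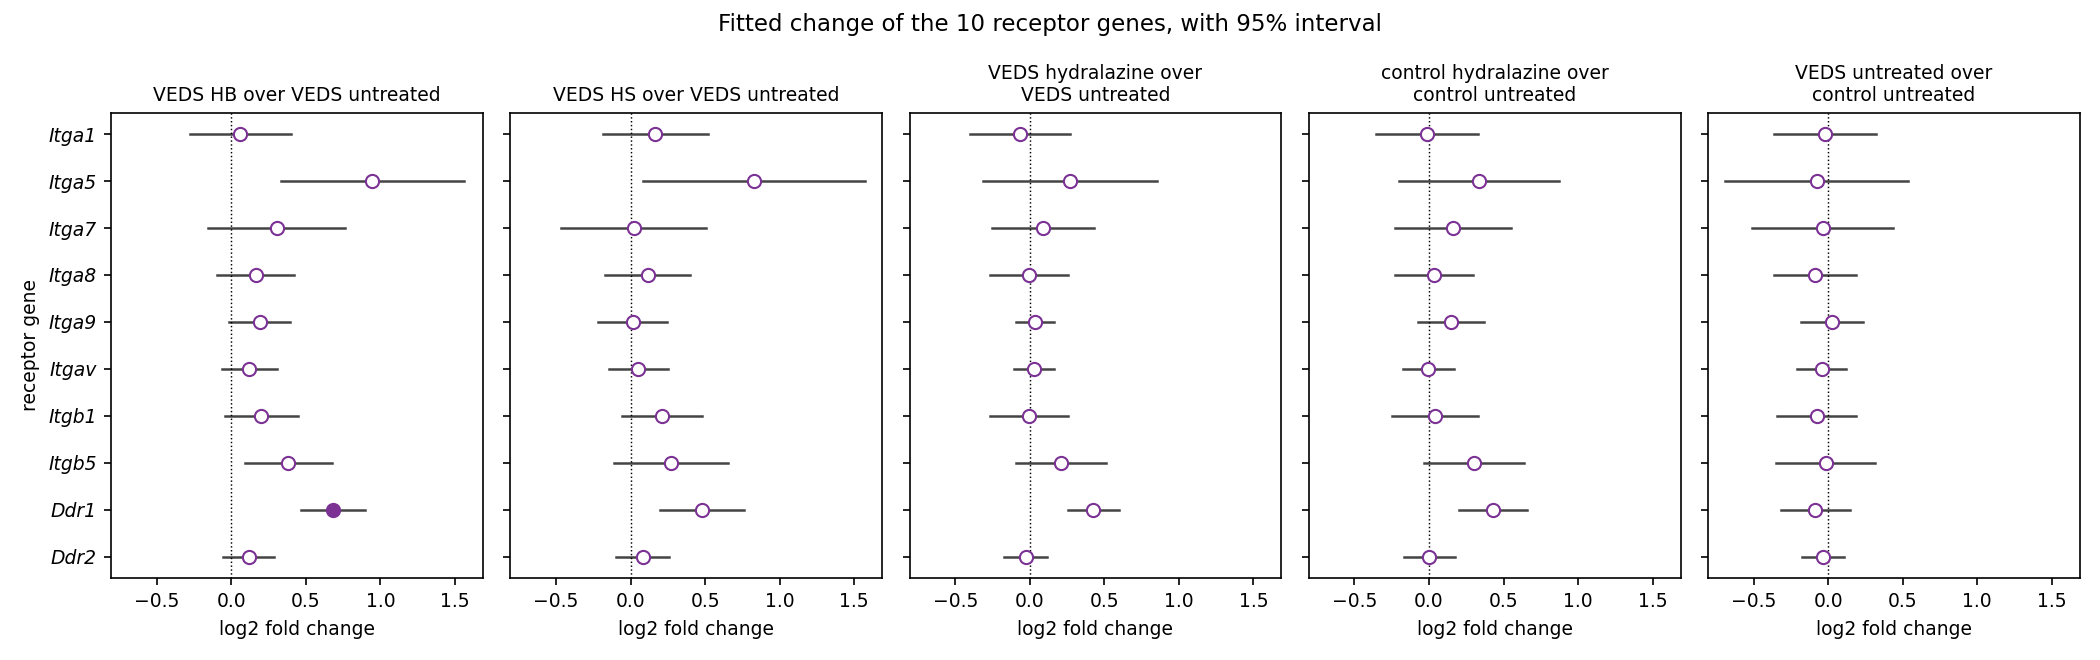
Fitted log2 fold change of the 10 receptor genes in 5 comparisons, with 95% intervals from edgeR. The filled point marks the 1 value that passed at an adjusted p of 0.05, Ddr1 in HB over VEDS untreated aortas (0.68). The intervals of the mutation comparison all include 0.

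Because HB and HS mice also drank hydralazine, the antagonists' addition was compared with hydralazine alone. No member passed in HB against VEDS hydralazine aortas (0.0151% of 13266 genes called by edgeR; DESeq2 called 575, no member among them). Itga5 averaged 217 ± 16.6 CPM in HB (n = 3) and 134 ± 45.7 CPM in VEDS hydralazine aortas (n = 6). The log2 difference was 0.69 ± 0.24 (adjusted p 0.21), but it turned to -0.24 with adipocyte and hepatocyte scores in the model and was 0.21 with 1 surrogate variable. Ddr1 averaged 40.3 ± 4.72 CPM in HB and 33.3 ± 3.30 CPM in VEDS hydralazine aortas (log2 0.27 ± 0.10, adjusted p 0.26). These were the 2 members with an unadjusted p under 0.05, beside 15.5% of all genes. All 10 differences were above 0 (median 0.18, all genes -0.00), in a comparison where only VEDS hydralazine replicates 3, 4 and 5 lay in the higher Col3a1 range. Beside VEDS hydralazine replicates 1, 2 and 6, in the lower range, Itga1 had 271 to 297 CPM in HB, against 298 to 327 CPM. The gap was narrow, and the share of all genes with such a split was not computed. Over the whole comparison the fitted Itga1 difference was above 0 (log2 0.14 ± 0.16, adjusted p 0.74 by edgeR). Itga5 (198 to 226 CPM in HB, against 151 to 202 CPM), Ddr1 (35.1 to 44.4 CPM, against 28.4 to 37.7 CPM) and Itgb5 (522 to 597 CPM, against 559.5 to 613 CPM) overlapped with VEDS hydralazine replicates 1, 2 and 6.

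In HS against VEDS hydralazine aortas, 0 members and 0 of 13304 genes passed by edgeR (0%), and DESeq2 called 54, no member among them. No member had an unadjusted p under 0.05, beside 13.6% of all genes. Ddr1 averaged 35.1 ± 7.08 CPM in HS and 33.3 ± 3.30 CPM in VEDS hydralazine aortas, a log2 difference of 0.08 ± 0.13 with an interval of -0.21 to 0.37. Itga5 had 0.58 ± 0.31 (adjusted p 0.42). HS and HB aortas, collected at the same age, gave no called member and no called gene (0% of 12800 by edgeR; DESeq2 called 35, no member among them), and no member had an unadjusted p under 0.05 (6.68% of all genes). The log2 differences lay between -0.27 (Itga7) and 0.11 (Itga1). Ddr1 had -0.19 ± 0.16 (interval -0.56 to 0.18) and Itga5 -0.11 ± 0.26 (interval -0.70 to 0.49), intervals that still hold a sizeable difference either way. Bicalutamide and spironolactone were given at different doses, so the values stand side by side.

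Set in order by group mean, Ddr1 was 40.3 CPM in HB, 35.6 in control hydralazine, 35.1 in HS, 33.3 in VEDS hydralazine, 26.5 in control untreated and 25.0 in VEDS untreated aortas. Neighbours in this order differed by less than the larger of their SDs, except VEDS hydralazine and control untreated aortas, which were not compared by a test. Itga5 ran in a similar order, 217 CPM in HB, 201 in HS, 149 in control hydralazine, 134 in VEDS hydralazine, 118 in control untreated and 112 in VEDS untreated aortas, but with an SD of 39.1 to 88.6 CPM in every group except HB (16.6 CPM).

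The genes around the receptors were counted from lists. Of 39 integrin adaptors and adhesion kinases, 37 were tested. None was called by edgeR in any of the 12 comparisons. In HB against VEDS untreated aortas 30 of 37 were higher (median log2 0.21, all genes -0.02), where 47.2% of all genes were higher, and 13 of 37 had an unadjusted p under 0.05, beside 16.4% of all genes. Actn1 had the smallest p, averaging 989 ± 86.6 CPM in HB and 625 ± 108 CPM in VEDS untreated aortas (log2 0.66 ± 0.13, adjusted p 0.0684). This comparison was not balanced between the Col3a1 ranges, and all 8 smooth muscle markers were higher in it (median log2 0.28). Their part in the adaptor values was not tested. In HS against VEDS untreated aortas 28 of 37 were higher, where 48.0% of all genes were, and 3 of 37 had such a p, beside 11.1% of all genes, with Cav1, which makes caveolin, first at 1106 ± 154 against 877 ± 66.9 CPM (log2 0.32 ± 0.11, adjusted p 0.29). Actn1 was also first of its list in HS against HB, at 632 ± 83.5 CPM in HS and 989 ± 86.6 CPM in HB aortas (log2 -0.64 ± 0.12, adjusted p 0.53). With hydralazine in both genotypes 27 of 37 were higher, where 49.4% of all genes were, and Sorbs3, which makes the vinculin-binding protein vinexin, was first (38.8 ± 4.82 against 32.4 ± 4.23 CPM, log2 0.26 ± 0.08, adjusted p 0.22).

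Of 18 other integrin subunits 11 to 14 were tested, depending on the comparison, and none was called. Itgb4, the hemidesmosome subunit that binds laminin, averaged 13.9 ± 1.73 CPM in HB and 10.1 ± 1.47 CPM in VEDS untreated aortas (log2 0.46 ± 0.15, adjusted p 0.16). Itga2b, the platelet subunit, averaged 2.93 ± 0.972 CPM in HB and 1.25 ± 0.375 CPM in VEDS hydralazine aortas (log2 1.18 ± 0.33, adjusted p 0.13). Itgam, a leukocyte subunit, was first in VEDS untreated against control untreated aortas, at 12.4 ± 1.2 and 9.00 ± 2.73 CPM (adjusted p 1.0). Of 9 other collagen receptors 7 were tested and none was called. Cspg4, the proteoglycan NG2 of mural cells, was first in HB against VEDS untreated aortas (575 ± 56.3 and 432 ± 49.8 CPM, log2 0.41 ± 0.11, adjusted p 0.11).

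The ligands did not pass either. Of 33 tested ligands of the members none was called in any comparison. In HB against VEDS untreated aortas 20 were higher and 13 lower, where 47.2% of all genes were higher. Of the 33, 9 had an unadjusted p under 0.05 by edgeR, beside 16.4% of all genes. Fn1, which makes fibronectin, the ligand of α5β1 and α8β1, averaged 2519 ± 156 CPM in HB and 1651 ± 228 CPM in VEDS untreated aortas (log2 0.60 ± 0.12, adjusted p 0.0629). It was also first among the non-collagen, non-laminin ligands in HB against VEDS hydralazine aortas (log2 0.53 ± 0.09, adjusted p 0.0941). Thbs1, which makes thrombospondin 1, averaged 271 ± 154 CPM in HS and 83.9 ± 22.6 CPM in VEDS untreated aortas (log2 1.68 ± 0.31, adjusted p 0.0712). All 10 tested collagens were lower in HS than in VEDS untreated aortas (median log2 -0.23), and 6 of 10 were lower in HB (median -0.06), with 0 at an unadjusted p under 0.05 in either comparison. Of all genes 48.0% were higher in HS and 47.2% in HB, and 11.1% and 16.4% had such a p. Col3a1 averaged 6271 ± 770 CPM in HB and 10500 ± 5989 CPM in VEDS untreated aortas (log2 -0.75 ± 0.46, adjusted p 0.44). HB (5581 to 7102 CPM) and HS libraries (5551 to 7377 CPM) all lay above the 3 VEDS untreated libraries of the lower range (4725 to 5450 CPM). They lay below the 3 of the higher range (13650 to 17720 CPM) by definition, since the ranges were set on Col3a1 itself. With hydralazine in both genotypes all 10 collagens and all 6 laminins were higher (medians 0.20 and 0.12), where 49.4% of all genes were. Svep1, a ligand of α9β1, was first among the other ligands there (224 ± 26.4 against 182 ± 20.5 CPM, log2 0.31 ± 0.07, adjusted p 0.0985).

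Promoter sequence was read for the members from RefSeq windows of 300 bases on build GRCm38.p6, 250 before and 50 after a gene's start, a build other than the mm39 build named for the files. Windows were found for 9 members, 1 each for 8 of them and 4 for Ddr1. The Itga5 window and the 1 of the 4 Ddr1 windows that holds a match are shown, since these members had the largest differences in HB aortas, with capitals marking a match to a motif searched on both strands.

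Ddr1, chr17:35701995-35702294, minus strand: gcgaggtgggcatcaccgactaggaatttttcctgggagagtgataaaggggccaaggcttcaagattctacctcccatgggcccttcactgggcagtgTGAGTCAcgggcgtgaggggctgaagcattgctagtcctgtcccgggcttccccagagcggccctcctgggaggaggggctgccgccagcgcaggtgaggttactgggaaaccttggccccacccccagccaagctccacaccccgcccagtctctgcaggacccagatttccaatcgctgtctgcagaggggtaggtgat
Itga5, chr15:103366742-103367041, minus strand: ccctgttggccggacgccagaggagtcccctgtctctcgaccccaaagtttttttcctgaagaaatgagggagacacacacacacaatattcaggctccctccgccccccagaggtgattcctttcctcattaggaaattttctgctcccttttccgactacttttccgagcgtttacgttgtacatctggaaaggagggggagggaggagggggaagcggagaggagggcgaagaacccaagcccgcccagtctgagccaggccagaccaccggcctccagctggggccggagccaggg

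The Ddr1 window, the third of its 4 in the direction of transcription, holds an AP-1 match (TGANTCA) at -151 to -145 from the start, and the other 3 Ddr1 windows hold none of the motifs. Itga9 has one at 39 to 45, and 7.81% of all 32851 promoter windows hold this motif. The Itga5 window holds none of the motifs. Itgb1 alone has a TEAD match (CATTCC, 14.7% of windows) and a steroid receptor half-site (AGAACA, 19% of windows). No member window holds a CArG box or a MEF2 box, which 1.63% and 0.557% of windows hold. A match is a run of letters and says nothing of binding.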

How the data were processed

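Libraries from 30 aortas were sequenced, demultiplexed with CASAVA 1.8.4 and quantified with RSEM on mm39, per the submitters' processing notes. The authors deposited 1 table per library with expected counts per gene, which are estimates that need not be whole (97.6% were), and TPM per gene, which the authors' tool scaled by transcript length and library. Expected counts were rounded to whole numbers. In each comparison genes were kept by edgeR's low-count filter (minimum count 10), scaled by TMM and tested with edgeR 4.0.16 (quasi-likelihood, Benjamini-Hochberg over all tested genes, called at an adjusted p of 0.05) in R 4.3.3. Each model held only the libraries compared. CPM values used TMM library sizes over all 30 libraries. Values of 7SL, 7SK, Rmrp and Rpph1 RNA took 9.89% to 16.2% of the counts and 72.4% to 81.5% of the TPM, so that TPM was used only to compare genes and within-library ratios. The fits were tested on simulated counts.

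Alternatives were RLE size factors, DESeq2 1.42.0, no low-count filter, a minimum count of 50, 1 fit of all libraries, 1 surrogate variable (sva 3.50.0), adipocyte and hepatocyte scores as covariates, leaving out 3 libraries that stand apart, and leaving out each library. Shared replicate numbers were not in the labels. The labels give 1 batch value for all libraries, and the extraction batch and age of a library were not given. P-values measure the spread between aortas of a group, which in the groups of 6 includes the difference between the Col3a1 ranges. Groups came from the labels' genotype and treatment. The 10 members and the gene lists were chosen with earlier results of these data known. All members were reported, and values by library were given for those with an adjusted p of 0.05 or less or an unadjusted p under 0.01 in any comparison, and for Itgb5, chosen after its values were seen. From each list the called genes with the smallest adjusted p, or else the 1 gene with the smallest p, could be named, and for each member the genes with the highest r. Protein sequence was not used here.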

Additional observations from a re-analysis of the deposited data

Results flagged for a closer look

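Itga7 had 254.8 CPM in VEDS untreated replicate 1, against 132 to 162 CPM in the other 5 VEDS untreated libraries, a gap large enough to set this aorta apart in its group. It was the only 1 of 40 gene and group sets of 6 libraries set apart in this way, and chance alone sets apart about 1 in 20. The same library had the highest Itga5 (194 CPM) and Itga1 (354 CPM) of its group. Its Itga8 (6719 CPM), Itga9 (1117 CPM), Itgb1 (1560 CPM) and Itgb5 (511 CPM) were the highest there too, but not its Itgav, Ddr1 or Ddr2. It also had the highest smooth muscle marker sum (30710 CPM) and the lowest hepatocyte marker sum (106.9 CPM) of all libraries. Without it, Itga5 and Itga7 passed in HB against VEDS untreated aortas, as given above, and 529 genes were called in place of 54.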

How the results depend on the processing

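No paired analysis was possible because the labels give the groups no shared replicate numbers. DESeq2 called 564 genes in HB against VEDS untreated aortas (2 members), 295 in HS against VEDS untreated, 575 in HB and 54 in HS against VEDS hydralazine, 35 in HS against HB, 59 with hydralazine in both genotypes, 11 and 2 with hydralazine in control and VEDS aortas, and 1 in VEDS against control aortas, under hydralazine and joined. Fitting all libraries together gave 141 genes in HS against VEDS untreated (1 member), 2 in HS and 1 in HB against VEDS hydralazine, 2 with hydralazine joined, 2 in VEDS against control aortas under hydralazine and 1 joined. With no low-count filter 2 genes were called in VEDS against control aortas under hydralazine, and with a minimum count of 50 none (0) in HB against VEDS hydralazine. A surrogate variable gave 173 genes in HB against VEDS untreated, 69 in HB and 6 in HS against VEDS hydralazine, 11 in HS against HB and 2 with hydralazine joined. The adipocyte and hepatocyte scores gave 27 (0 members) in HB and 24 in HS against VEDS untreated, 101 in HB and 10 in HS against VEDS hydralazine, 42 in HS against HB and 52 with hydralazine joined. With these scores Itga7 turned to -0.18 and Itga9 to -0.0098 in HB against VEDS untreated, and Itga5 to -0.24 in HB against VEDS hydralazine. Without the 3 libraries that stand apart, 2 genes (0 members) were called in HB and 1 in HS against VEDS untreated, 1 in HB against VEDS hydralazine, 1 in HS against HB and 0 (0 members) with hydralazine joined. The cause of these changes was not tested.

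Leaving out 1 library at a time gave 2 to 529 genes and 0 to 3 members in HB against VEDS untreated, 0 to 104 genes in HS against VEDS untreated, 1 to 56 in HB against VEDS hydralazine, 0 to 2 in HS against HB, 0 to 2 in VEDS against control under hydralazine, 0 to 1 with hydralazine in control aortas, and 0 to 7 genes and 0 to 1 members with hydralazine joined. Ddr1 stayed above 0 in all 9 such fits of HB against VEDS untreated (0.61 to 0.77, called in 3) and all 24 of hydralazine joined (0.39 to 0.46, called in 18). With 3 HB and 3 HS aortas, and Ddr1 at 114 to 319 reads a library, small differences were not detectable.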
